A study of Mus musculus with 9 samples.

Results

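TWIST1 regions found in every Twist1-OE library and lying at a gene end were described here: 3173 of 10168 reproducible regions, or 31.2%. They were chosen by the authors' peak lists themselves. Peaks of the 4 Twist1-OE ChIP libraries that shared at least 1 bp were merged into 116734 regions, and 10738 of these held a peak of all 4. The 570 that a peak of a Twist1-KO ChIP or Twist1-KO input library overlapped were left out, on chromosomes 1 to 19. A region's position was the mean over the libraries of the summit of its strongest peak, and a region was at a gene end when that position lay within 1 kb of either end of a protein-coding gene. The other 6995 reproducible regions served as the comparison: 3609 deeper inside genes, 2448 between genes within 100 kb of one, and 938 farther away.

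Mouse A2loxcre embryonic stem cells with a Twist1-/- background and a doxycycline-inducible Flag-Twist1 (Twist1-OE) were compared with Twist1-/- cells lacking the cassette (Twist1-KO), both differentiated for 3 days, given 16 h of doxycycline, and processed as embryoid bodies. Chromatin was precipitated with a TWIST1 antibody in 4 Twist1-OE and 2 Twist1-KO libraries, and 1 Twist1-KO input was read. The 2 Twist1-OE inputs were not analysed here. No group carries TWIST1 from its own gene, the factor comes from a cassette at whatever level doxycycline gives, the labels name no separate clones, and the strain is given as C57BL/6. The design text speaks of neuroepithelial differentiation. Peak lists hold no expression values, so the cell type could not be checked against markers.

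TWIST1 is a basic helix-loop-helix (bHLH) protein that acts in mesenchyme and in the cranial neural crest. It binds DNA as a dimer, often with an E protein such as TCF3, TCF4 or TCF12, and each dimer reads an E-box, a short motif written CANNTG. ID proteins lack the DNA-binding part and take E proteins away from such dimers. A gene start is also where RNA polymerase assembles, mostly on open chromatin, and many mouse gene starts lie in stretches rich in G, C and the CpG pair.

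Sequences are shown as examples of 2 kinds of gene-end region. In 741 members (23.4%) the 4 libraries placed their summits within 100 bp of each other, called agreeing here, and in the other 2432 the summits spread farther. The sequences of agreeing regions are those with the highest fold ranks among the regions that had an E-box within 50 bp of the position and lay in a RefSeq promoter entry, so they were picked to hold an E-box. Each gives 30 bases on the gene's strand, 5′ to 3′. Capitals mark each CANNTG. In GRCm38 they lie at chr3:101376920-101376949 (Igsf3, plus strand), chr8:13785430-13785459 (Upf3a, plus), chr2:25255447-25255476 (Tmem203, plus), chr6:100833601-100833630 (Ppp4r2, plus), chr19:47178802-47178831 (Neurl1a, plus), chr16:33062466-33062495 (Lmln, plus) and chr3:146404478-146404507 (Ssx2ip, plus).
Igsf3: cCAGGTGgtccgCAGCTGcgtgcgggtgca
Upf3a: gtccggagtgagCATCTGctctccgcgtgg
Tmem203: gggcggggatagCATCTGgacaccacgggc
Ppp4r2: gcgcgaggacgaCAGCTGtggggagcgtgc
Neurl1a: ccccgagacccaCATCTGgcagagcgggcg
Lmln: cttacggcccgcCACCTGtccgcggcgagg
Ssx2ip: ccccgggtgtaaCAGGTGcggtagccgcag
CAGGTG and CACCTG are the same E-box read from opposite strands, as are CATCTG and CAGATG, while CAGCTG reads the same on both. The Igsf3 sequence holds a pair of E-boxes with 5 bases between them.

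Dupd1, a phosphatase gene, gives a longer view of an agreeing region. Its summits lay at −198, −185, −183 and −177 bp from the gene start (negative: upstream) in OE libraries 1 to 4, and its folds were 66.4, 204, 181 and 39.0. The 250 bases before the start (minus strand, chr14:21714577-21714826) hold 4 E-boxes, and the summits fall between the second and the third of them.
Dupd1: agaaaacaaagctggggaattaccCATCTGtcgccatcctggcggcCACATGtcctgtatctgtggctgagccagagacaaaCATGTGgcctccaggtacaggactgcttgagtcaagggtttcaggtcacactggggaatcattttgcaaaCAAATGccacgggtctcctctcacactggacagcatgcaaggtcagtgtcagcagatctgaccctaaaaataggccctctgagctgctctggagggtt

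Elovl7, a fatty acid elongase gene, Arhgef16, a guanine nucleotide exchange factor gene, and Hrh1, a histamine receptor gene, show spread summits. They have the highest ranks among spread regions with both summits in 1 promoter entry, and were picked with no regard to E-boxes. The examples thus do not compare the kinds, which the counts at summits within promoter entries do further on. At Elovl7 the summits lay at 65 and 62 bp from the gene start in OE libraries 1 and 4, and at −17 and −77 bp in OE libraries 2 and 3. The 30 bases at the OE 1 summit (chr13:108214376-108214405, plus strand) hold no E-box, and the 30 at the OE 2 summit (chr13:108214294-108214323) hold 1.
Elovl7 at OE 1: ccctaccgcctccgcccctcgcagcctggt
Elovl7 at OE 2: ggcgtCACCTGgcggcgacgggcaggcggg
At Arhgef16 (minus strand) both the OE 1 summit (chr4:154299947-154299976) and the OE 2 summit (chr4:154300067-154300096) have an E-box in their 30 bases, of different forms.
Arhgef16 at OE 1: ggagccCACCTGgccccggctccgcccgac
Arhgef16 at OE 2: tCACGTGaacgcaggcggacccaggtagag
At Hrh1 neither the 30 bases at the OE 1 summit (chr6:114397928-114397957, plus strand) nor those at the OE 2 summit (chr6:114397782-114397811) hold 1.
Hrh1 at OE 1: ccgcggccgcctccgccaccgcaccgagca
Hrh1 at OE 2: ttggcttcttgccaagctcagggctccgcc
All sequences are from RefSeq promoter entries of GRCm38.p6, and a match to the letters describes the sequence and does not show that TWIST1 touches it.

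The 4 Twist1-OE lists differed greatly in length and in background level. On chromosomes 1 to 19 they held 21811, 104488, 85676 and 13784 peaks in OE libraries 1 to 4. The commonest background level, recovered from the caller's own values and given in fragments, was 1.00 and 1.20 in OE 1 and 4 and 5.38 and 5.29 in OE 2 and 3. OE 1 and 4, and OE 2 and 3, are therefore named below as sets of libraries defined by background, not as groups of the study. The Twist1-KO ChIP lists held 81 and 52 peaks at backgrounds of 4.73 and 5.09, and the Twist1-KO input list held 1602 at 6.46. Totals of sequenced reads were not among the values used here.

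Gene ends took a different share of the peaks in each list. The share was 25.5% in OE 1, 14.5% in OE 2, 16.4% in OE 3 and 33.3% in OE 4. In the Twist1-KO input it was 42.2% (exact 95% binomial interval 39.8 to 44.7%), higher than in any Twist1-OE list. In the Twist1-KO ChIP lists it was 11.1% (5.21 to 20.05%) and 7.69% (2.14 to 18.5%), from few peaks. These intervals cover counting error only.

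Of 3562 gene-end regions present in all 4 Twist1-OE libraries, 389 (10.9%) were left out for an overlap, 386 of them with the Twist1-KO input and 3 with a Twist1-KO ChIP peak. Of the 7176 regions elsewhere, 181 (2.52%) were left out. Among the regions kept, a Twist1-KO input peak lay within 5 kb of 33 gene-end regions (1.04%) and of 81 others (1.16%). With the strongest peaks of each list taken to an equal list length, 606 reproducible regions (11.9%) were at gene ends. How far signal at gene ends that needs no TWIST1 entered the kept regions was not tested.

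The fold enrichment at the summit, the authors' caller's value for a single peak over its local background, had opposite orders in the library sets. In OE 1 the median fold was 17.97 at gene ends and 14.7 elsewhere, and in OE 4 it was 13.2 and 9.99. In OE 2 it was 6.58 at gene ends and 26.0 elsewhere, and in OE 3 it was 6.83 and 23.04. Gene-end regions were thus stronger than the others in OE 1 and 4 and weaker in OE 2 and 3. Both kinds of region had passed the same choice, a peak in all 4 lists. A peak is listed only above its list's limit and the lists differ in length, so the choice was not free of strength. With lists cut to equal length the mean difference in log2 fold, gene ends minus elsewhere, was −0.21, against −0.76 for the full lists. How far the choice shaped these differences was not tested.

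**Figure D1:**
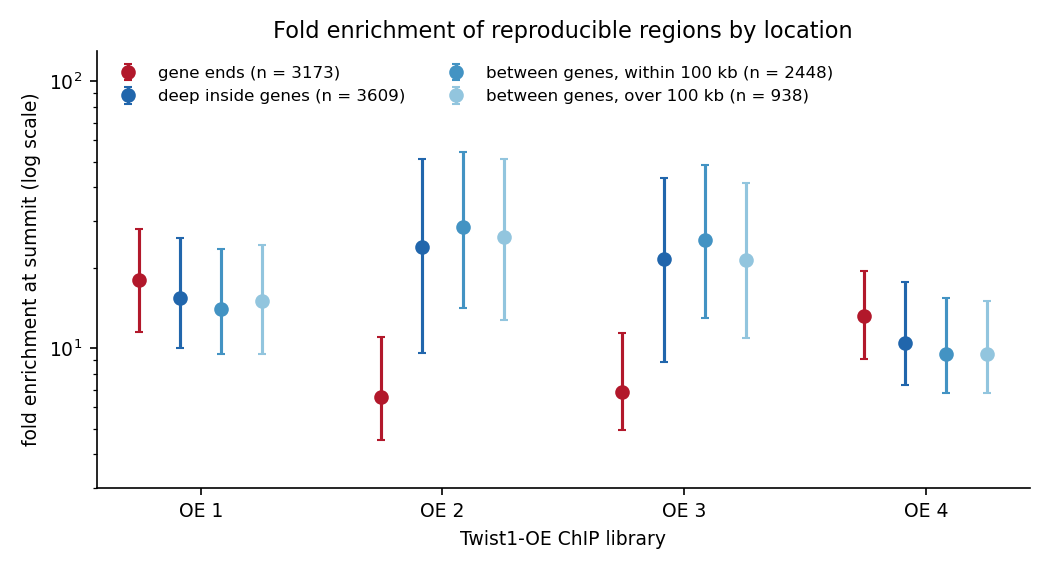
Median fold enrichment (log axis) in each Twist1-OE library for reproducible regions at gene ends and in 3 other locations, with bars from the lower to the upper quartile of regions. The gene-end point is the highest of the 4 in OE 1 and OE 4 (17.97 and 13.2) and the lowest in OE 2 and OE 3 (6.58 and 6.83).

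On the log2 scale the median at gene ends minus the median elsewhere was 0.29, −1.98, −1.75 and 0.40 in OE libraries 1 to 4, with a mean of −0.76 ± 1.28 (SD, n = 4 libraries). An exact two-sided permutation test that flips the sign of each library's difference gave p = 0.5, or 0.75 after Benjamini-Hochberg adjustment over the 3 measures compared this way. With 4 libraries that test cannot go below 0.13, its smallest value. Within the sets the mean difference was 0.35 in OE 1 and 4 and −1.87 in OE 2 and 3, so the pooled mean describes neither.

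Ranks within a list gave the same split, but the lists differ in length, which moves a region's rank. The median gene-end region outranked 77.3%, 66.5%, 67.3% and 66.5% of the peaks of OE libraries 1 to 4. The median region elsewhere outranked 70.6%, 95.3%, 94.5% and 51.5%. The difference averaged −8.58 ± 22.7 percentile points (SD, n = 4; exact permutation p = 0.5, adjusted p = 0.75). It was 2.94 points, the opposite sign, with lists of equal length, and −2.71, −3.04 and −13.3 without OE 2, OE 3 and OE 1.

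Peak width followed the fold. The median gene-end peak was 82 bp wider than the others in OE 1 and 90 bp wider in OE 4, and 173 and 43 bp narrower in OE 2 and OE 3 (mean difference −11 ± 124 bp, SD, n = 4; exact permutation p = 0.875, adjusted p = 0.875). The sign of this mean is not stable.

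Across gene-end regions, folds ranked alike within a set and hardly alike between sets. Spearman's rho over the 3173 regions was 0.85 between OE 1 and OE 4 and 0.91 between OE 2 and OE 3, and 0.11 to 0.13 for the pairs across the sets. Across the sets rho was −0.04 to 0.05 over the 741 agreeing gene-end regions and 0.14 to 0.15 over the 2432 spread ones. Over the 6995 other regions the pairs across the sets gave 0.40 to 0.45. These values describe regions that share libraries and base composition, and carry no p.

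The share of peaks at gene ends also moved with peak strength in each whole list. When each list was ranked by fold and split into 10 equal parts, the lowest part of OE 1 had 14.8% at gene ends, the ninth 43.3% and the highest 36.9%. In OE 4 these were 17.3%, 46.9% and 34.2%. OE 2 stayed between 14.5% and 15.8% up to the eighth part and had 13.1% in the ninth and 9.29% in the highest. OE 3 went from 16.0% in the lowest part to 19.1% in the seventh, 15.7% in the ninth and 10.4% in the highest. The Twist1-KO input went from 1.86% to 65.0% in the seventh part and had 29.8% in the highest. The highest part was above the lowest in OE 1, OE 4 and the input, and below it in OE 2 and OE 3.

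**Figure D2:**
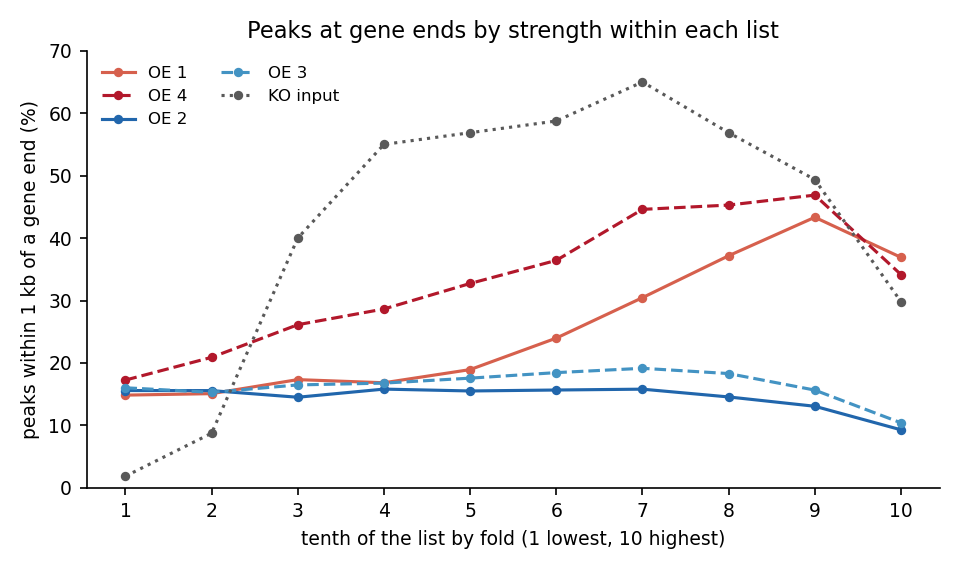
Percent of peaks within 1 kb of a gene end in each of 10 equal parts of a list ranked by fold, for the 4 Twist1-OE ChIP lists and the Twist1-KO input. The lines of OE 1, OE 4 and the input climb to 43.3%, 46.9% and 65.0% and then fall, while OE 2 and OE 3 end at 9.29% and 10.4%.

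Most members sat at the start of a gene. With strand taken from the RefSeq promoter entries, 2375 members (74.9%) were nearest a gene start and 153 (4.82%) nearest the far end, and for 645 (20.3%) the strand was not used. By distance, 939 members (29.6%) lay within 100 bp of the gene end, 881 at 101 to 250 bp, 727 at 251 to 500 bp and 626 beyond 500 bp. The position was inside the gene for 2229 members, and 348 members had 2 or more gene ends within 1 kb. At the limit, Phf21a at 1000 bp and Snx13 at 999 bp were counted, and Apod at 1003 bp and Prr7 at 1004 bp were not. The median fold was 17.97 in each of the 4 bins in OE 1. From the nearest to the farthest bin it went from 6.27 to 7.68 in OE 2, 6.67 to 7.71 in OE 3 and 13.6 to 12.7 in OE 4.

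The far-end members resembled the regions away from gene ends. Their median folds were 14.5, 20.5, 18.1 and 11.4 in OE libraries 1 to 4, against 17.97, 6.27, 6.67 and 13.2 at gene starts. Their summits agreed in 91 of 153 (59.5%), against 500 of 2375 (21.1%) at gene starts and 66.3% of the regions elsewhere. Summit positions helped to choose the members, so these shares are given without a test.

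Summits within a set lay close together, and those of different sets did not. At gene ends the median distance was 25 bp between OE 1 and OE 4, 29 bp between OE 2 and OE 3, and 182.5 bp between the means of the 2 sets. For the other regions it was 24, 10 and 26.5 bp. The median range over all 4 libraries was 286 bp at gene ends and 56 bp elsewhere. For a spread region the mean position is therefore a midpoint and not a summit of any library.

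Measured along the gene, the sets were more often offset in 1 direction. The mean summit of OE 1 and 4 lay downstream of that of OE 2 and 3 in 1563 gene-start regions (65.8%). Over the 2375 gene-start regions the median summit lay 153 and 163 bp inside the gene in OE 1 and OE 4, and 11 and 14 bp inside it in OE 2 and OE 3. Summits upstream of the start made up 21.7% and 22.3% in OE 1 and 4, against 48.8% and 47.5% in OE 2 and 3. Every peak of the Twist1-KO input list at a gene start, 533 in all, gave a median of 131 bp inside and 28.9% upstream.

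Since the regions were split by the range of their summits, the split itself fixes a small offset at agreeing regions and a larger one at spread regions, and the values here only describe it. Among the 1875 spread gene-start regions the medians were 171 and 184 bp inside in OE 1 and 4, and −6 and 8 bp in OE 2 and 3. The mean summit of OE 1 and 4 lay downstream of that of OE 2 and 3 in 1264 of them (67.4%), by a median of 146 bp over all 1875. In 675 (36.0%) OE 1 and 4 were inside the gene and OE 2 and 3 upstream. Among the 500 agreeing regions the medians were 66, 52.5, 54 and 63 bp in OE libraries 1 to 4.

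**Figure D3:**
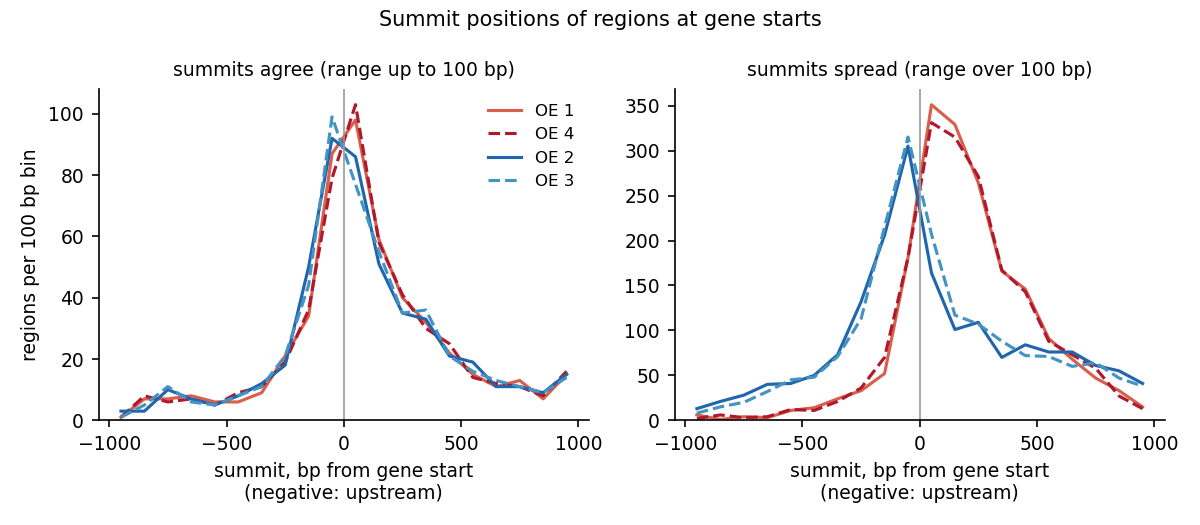
Number of gene-start regions per 100 bp bin of summit position, from 1000 bp upstream (negative) to 1000 bp inside the gene, with 1 line per Twist1-OE library, for 500 agreeing (left) and 1875 spread regions (right; the vertical axes differ). At spread regions the lines of OE 1 and 4 stand to the right of those of OE 2 and 3 (medians of 171 and 184 bp against −6 and 8 bp). The 4 lines run together at agreeing regions because those were defined by summits within 100 bp.

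E-boxes at the summits, which played no part in choosing the regions, were counted where a window of 50 bp to each side of a library's own summit lay inside a RefSeq promoter entry (250 bases before to 50 after a start). At agreeing regions an E-box was in 69.2%, 74.1%, 69.4% and 65.3% of such windows in OE libraries 1 to 4, from 169, 193, 193 and 170 summits. At spread regions it was in 23.7%, 55.6%, 52.9% and 25.8%, from 418, 586, 628 and 422 summits. Of all windows of that length in 16456 promoters, 32.8% held an E-box on either strand. Among the summits counted, spread ones were thus below this share in OE 1 and 4 and above it in OE 2 and 3. Agreeing ones were above it in every library. Most summits of the 500 agreeing and 1875 spread gene-start regions had no such window and were not counted. The regions counted therefore differed between libraries.

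The agreeing share exceeded the spread share in 4 of 4 libraries, by 30.0 ± 14.7 percentage points (SD, n = 4; exact two-sided permutation p = 0.13, the smallest 4 libraries can give, and adjusted p = 0.20 over the 11 motifs tested). The mean shares were 69.5% ± 3.599 and 39.5% ± 17.1. The libraries share these regions and their DNA, so the test measures only the spread between libraries. Agreeing gene-end regions were also stronger than spread ones in every library. Their median folds were 21.0, 13.0, 12.7 and 15.4 in OE libraries 1 to 4, against 17.5, 5.80, 6.20 and 12.7 at spread regions. The part of strength in the E-box share was not tested.

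Of the single E-box forms, CAGATG, read from either strand, was at 22.0% of agreeing summits and 5.31% of spread ones on average, with 5.17% in all promoter windows. CACCTG was at 28.9% and 15.8% (7.02% in all), and CAGCTG at 20.7% and 9.22% (5.07% in all). These 3 forms had the largest differences of 10, and each was higher at agreeing summits in 4 of 4 libraries (exact permutation p = 0.13, adjusted p = 0.20). CAACTG was also higher in 4 of 4, at 2.86% and 1.68%. CAAGTG was lower at agreeing summits in 4 of 4, at 0.960% and 2.11%, as was CATATG, at 0% and 0.537%. The other 4 forms had mixed signs. Among them CACGTG was at 7.31% and 7.19%, and it was lower at agreeing summits in OE 2 (7.77% against 8.87%) and OE 3 (6.74% against 8.92%). At spread summits CAGATG averaged 1.78% in OE 1 and 4 and 8.84% in OE 2 and 3.

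**Figure D4:**
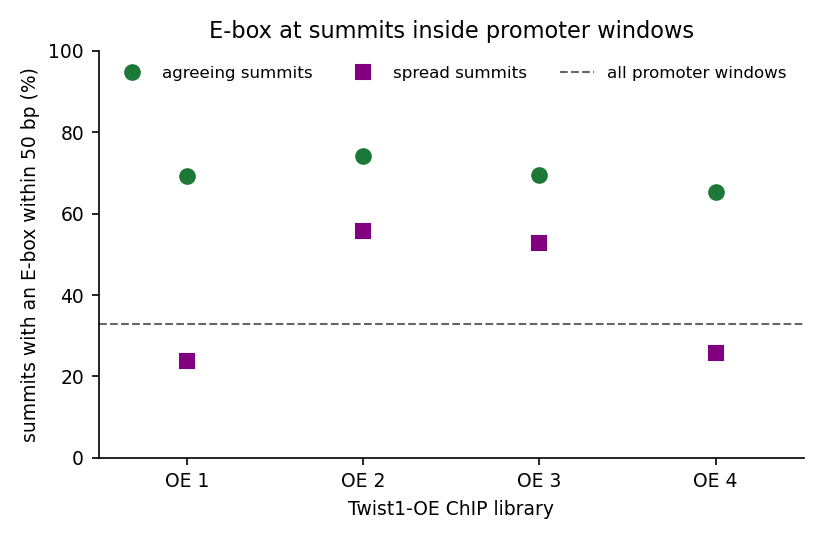
Percent of summits with CANNTG within 50 bp in each Twist1-OE library, for gene-start regions with agreeing (circles) and spread (squares) summits. Only summits whose window lay inside a promoter entry were counted. The dashed line is the share of all promoter windows (32.8%). Circles lie between 65.3% and 74.1%, and squares at 23.7% and 25.8% in OE 1 and OE 4 and at 55.6% and 52.9% in OE 2 and OE 3.

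Base composition differed between the library sets as well, at spread more than at agreeing regions. At spread regions the median window had 80.2% G and C in both OE 1 and OE 4, and 68.3% and 69.3% in OE 2 and OE 3. The GC box GGGCGG, the site of SP and KLF factors, was in 73.0% and 69.0% of spread windows in OE 1 and 4 and in 49.5% and 50.6% in OE 2 and 3. Agreeing windows had medians of 76.2%, 74.3%, 75.2% and 76.2% G and C in OE libraries 1 to 4. GGGCGG was in 57.4%, 59.1%, 59.1% and 62.4% of them. All promoters had a median of 56.7% G and C over 300 bases, so the 32.8% share of all windows is not matched in composition. The part of base composition in the fold, in the summit position or in the E-box share was not tested.

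Where the mean position fell in a promoter entry, an E-box was within 50 bp in 135 of 187 agreeing regions (72.2%), at a median distance of 10.5 bp. It lay within 10 bp of the position in 60 of them. The same is not given for spread regions, whose mean position can lie far from every summit.

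Over whole promoter entries of 300 bases the E-box said little. It was in 68.4% of all 16456 entries, 64.1% of the 2367 with a region at the start, 74.7% of those with agreeing and 61.3% of those with spread summits. A pair of E-boxes with 5 bases between them, as printed for Igsf3, was in 0.638% of all entries, in 17 of 499 with agreeing summits (3.41%) and in 0.214% with spread summits. Promoters with a region at the start held GGGCGG in 75.7% (47.3% of all), CCAAT in 33.1% (39.1%) and TATAAA in 5.58% (13.5%), on either strand. Their median G and C content was 67.3% against 56.7% in all, and their observed over expected CpG was 0.840 against 0.597.

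The strongest member, by mean rank over the libraries, lay 393 bp beyond the far end of Sox12 (chr2:152391874-152394842). Sox12 encodes a SOX transcription factor of the SOXC group. Its folds were 506, 808, 824 and 307 in OE libraries 1 to 4, and the summits lay within 14 bp. OE 2 and 3 were the higher pair, and all 4 folds were high.

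Another 3 of the leading far-end regions agreed in the same way. The region 76 bp beyond Sh3d21, also within 1 kb of Eva1b (chr4:126147107-126151916), had folds of 174, 480, 569 and 130. The region inside the far end of Brdt (chr5:107385890-107387764), which encodes a bromodomain protein of the testis, had 145, 457, 425 and 106. The region near Klc4, a kinesin light chain gene, and Ptk7, a WNT co-receptor gene (chr17:46629255-46631472), had 86.8, 256, 258 and 53.6. In each, OE 2 and 3 were the higher pair.

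At gene starts the leading regions included both orders. Pomgnt2, a glycosyltransferase of dystroglycan modification, had folds of 484, 134, 104 and 401 (128 bp inside the gene, chr9:121995120-121996625). Igsf3, an immunoglobulin superfamily gene, had 440, 82.8, 82.5 and 324 at 277 bp inside (chr3:101376460-101377938). In both, OE 1 and 4 were the higher pair.

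Dennd1b, a guanine nucleotide exchange factor gene, had folds of 150, 260, 249 and 96.3 at 389 bp upstream (chr1:138962735-138964287), where OE 2 and 3 were higher. Rcor2, a subunit of LSD1 corepressor complexes, had 154, 115, 116 and 69.5 with summits within 11 bp (chr19:7263619-7270232). Tbc1d8, a TBC-domain gene, had 194, 103, 101.2 and 85.4, with summits spread over 330 bp.

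Of the 8 agreeing regions shown above by sequence, Ppp4r2, a regulatory subunit of protein phosphatase 4, had the widest gap between sets, at 737, 36.4, 28.9 and 452. Upf3a, a nonsense-mediated decay gene, had nearly level folds of 79.9, 93.4, 92.3 and 54.5, and its summits lay within 8 bp. Tmem203, whose region was also within 1 kb of Ndor1, had 77.9, 75.7, 56.4 and 57.2. These examples thus held unequal as well as level folds.

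Named for the largest gap in rank between the sets, whose lists differ in length, Glrb, a glycine receptor subunit, had folds of 60.9, 3.45, 3.02 and 25.9. Dennd5b had 40.4, 3.29, 3.02 and 23.2, and Cab39, a partner of the kinase LKB1, had 26.0, 3.13, 2.86 and 19.5. In these 3 regions OE 1 and 4 were the higher pair. In the opposite direction Pyroxd1 had 6.49, 23.04, 16.8 and 4.54, Irf2bpl had 5.49, 20.1, 25.9 and 5.45, and the shared start of Surf1 and Surf2 had 4.99, 16.0, 16.7 and 5.45. These regions were picked for the gap, which is given as a description.

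Over genes, 3464 of 20661 protein-coding genes (16.8%) had a gene-end region, and 820 (3.97%) had one with agreeing summits. Of them 3404 genes had 1 region and 60 had 2. The first of these 60 by name were Ache, Arhgap35, Barhl1, Bmp7 and Bnip2. Genes with a region had a median length of 29402 bp, against 15866 bp for the others. By chromosome there were 10.9 (chromosome 7) to 19.7 (chromosome 12) gene-end regions per 100 genes, and their share of reproducible regions ran from 23.3% (chromosome 18) to 36.2% (chromosome 11).

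The counts of the gene lists below are read beside 16.8% and, for agreeing summits, 3.97%. Shares of small lists rest on few genes, and no list was tested. The count over all 20661 genes, 3464 in the main setting, also changed under other settings. It was 2738 with a limit of 500 bp, 4124 with 2 kb and 4996 with a peak in at least 3 of the 4 libraries. The 7 lists of bHLH, Notch, WNT, SOX, neural crest, chromatin and cell cycle genes had shares for any region above 16.8%. The pluripotency list (20%, 4 of 20 genes) and the cytosolic ribosomal housekeeping list (17.3%, 14 of 81) were near 16.8%. For agreeing summits the bHLH and WNT lists, at 4.17% each, were near 3.97%, and the Notch list was at 15% and the neural crest list at 16%. The keratin (14.3%), chromatin (12.5%), SOX (11.8%), pluripotency (10%), cytosolic ribosomal (9.88%) and cell cycle (8.33%) lists were also above 3.97%. Among these shares, those of the Notch and chromatin lists rest on 3 genes each, and those of the SOX, pluripotency and cell cycle lists on 2 each.

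Among 24 bHLH partners and inhibitors, 9 had a region (37.5%) and 1, Bhlhe41, one with agreeing summits. The E protein genes Tcf3 and Tcf12 had a region and Tcf4 did not. At Tcf12 the folds were 31.4, 9.09, 10.97 and 34.1, and at Tcf3 21.5, 5.64, 8.10 and 9.99. Hes6, a HES family gene of neurogenesis, had the highest ranks of the list with 191, 40.0, 60.9 and 126. None of Id1, Id2, Id3 and Id4 had a region at either end.

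Twist1 itself had a region 762 bp from its start (chr12:33957339-33959091), with folds of 41.9, 4.39, 4.45 and 48.1 and summits over 106 bp. It is named here because the inducible cassette carries Twist1 sequence, so that reads of the cassette and of the locus cannot be told apart where they match.

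In the Notch list, 9 of 20 genes (45%) had a region and 3 with agreeing summits: Dll3, Lfng and Notch4. Lfng, which glycosylates Notch receptors, had folds of 53.9, 100.8, 90.6 and 38.1 at 727 bp before its start. Dll3, a ligand-like member, had an agreeing region with 5.99, 24.0, 24.0 and 7.26. Nrarp, a feedback inhibitor, had 34.9, 9.25, 7.31 and 22.2 with summits over 941 bp. Only 2 of the 20 kept a region when the limit was 500 bp. Over all 20661 genes, 2738 kept one, against 3464 at 1 kb.

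In the WNT list, 11 of 24 genes (45.8%) had a region and 1, Tcf7l2, with agreeing summits. The receptor genes Fzd2, Fzd5, Fzd8 and Fzd10 were among them. Fzd2 had folds of 32.9, 24.4, 32.9 and 22.2 and Fzd5 36.4, 14.1, 9.06 and 30.4. Wnt7b, a ligand gene, had 24.0, 10.8, 8.58 and 21.3. Their summits spread over 550, 413 and 1455 bp.

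In the SOX list, 7 of 17 genes (41.2%) had a region and 2, Sox12 and Sox15, with agreeing summits. Sox2, a factor of pluripotent and neural progenitor cells, had folds of 11.98, 13.9, 15.1 and 14.1 that were nearly level, with summits over 983 bp. Sox11 had 14.5, 7.37, 9.54 and 12.3.

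Of 25 neural crest and mesenchyme regulators, 9 (36%) had a region and 4 with agreeing summits, among them Snai1, Snai2 and Snai3. All 3 Snail family genes, which encode zinc finger repressors of epithelial genes, were thus among them. Snai1 had folds of 15.5, 16.0, 17.96 and 23.2 within 35 bp, Snai2 14.5, 32.4, 25.6 and 9.99 within 32 bp, and Snai3 90.3, 27.1, 28.3 and 72.2 within 77 bp. Tfap2b had 17.5, 25.2, 14.9 and 14.1, and Foxd3 25.5, 10.8, 9.38 and 13.2, both with spread summits. Prrx1, Msx1 and Msx2 had none.

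Of 20 pluripotency factors 4 (20%) had a region: Sox2, Klf4, Fgf4 and Lefty1. Lefty1, an inhibitor of Nodal signalling, had folds of 59.9, 108, 164 and 49.9, and Klf4 had 64.4, 10.2, 11.1 and 31.3, both with agreeing summits. Pou5f1 and Nanog had none. The count was 8 with a limit of 2 kb and 9 with a peak in at least 3 of the 4 libraries.

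Of 24 chromatin regulators 12 (50%) had a region and 3, Chd9, Nsd2 and Smarcc1, with agreeing summits. Chd9, a chromodomain helicase gene, had folds of 23.5, 35.6, 27.8 and 16.3. Kmt2a, a histone H3K4 methyltransferase gene, had 52.4, 14.7, 17.8 and 29.5, and Nsd1, a histone H3K36 methyltransferase gene, had 21.5, 7.68, 7.79 and 22.2 with summits over 1749 bp. When the limit was 500 bp, 5 of the 24 had a region.

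Of 24 cell cycle and p53 genes 8 (33.3%) had a region and 2, Cdkn2a and E2f1, with agreeing summits. Mycl had folds of 96.3, 11.6, 13.0 and 75.4 and E2f1 43.9, 10.2, 10.5 and 23.2 at its stronger region, whose summits spread over 363 bp. Cdkn1a and Trp53 had none.

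Housekeeping lists were included because their genes are active in most cells. Cytosolic ribosomal protein genes had a region in 14 of 81 (17.3%) and an agreeing one in 8 (9.88%). Rpl13a had folds of 39.9, 86.2, 78.2 and 20.4 with summits within 7 bp, and Rpl32 had 125, 18.2, 15.1 and 101.2. Mitochondrial ribosomal protein genes had a region in 5 of 78 (6.41%) and proteasome subunit genes in 2 of 39 (5.13%), none with agreeing summits. With a peak in at least 3 of the 4 libraries, the counts were 26, 16 and 4. With a limit of 500 bp the cytosolic and mitochondrial counts were 9 and 3, and with 2 kb the mitochondrial count was 10. The proteasome list was matched by how the gene symbol starts, so its 39 genes include Psmc3ip, which is not a proteasome subunit gene and had no region.

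Lists of genes of other tissues gave unlike counts. Olfactory receptor genes had a region in 3 of 1104 (0.272%), all at far ends and all with agreeing summits, and vomeronasal receptor genes in 0 of 354. The olfactory count was 6 with a limit of 2 kb. Keratin and keratin-associated genes had a region in 18 of 112 (16.1%) and an agreeing one in 16, or 14.3% of the list. Most of these were keratin-associated protein genes, among them Krtap4-16 with folds of 78.4, 76.2, 88.2 and 66.7 and Krtap4-6 with 48.9, 70.8, 64.8 and 33.1. These genes are near-identical copies, and how reads that match several copies were handled is not stated in the labels, which leaves regions at single copies uncertain. The list was matched by symbols that start with Krt, so its 112 genes also include Krtcap2, Krtcap3 and Krtdap, which had no region.

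**Figure D5:**
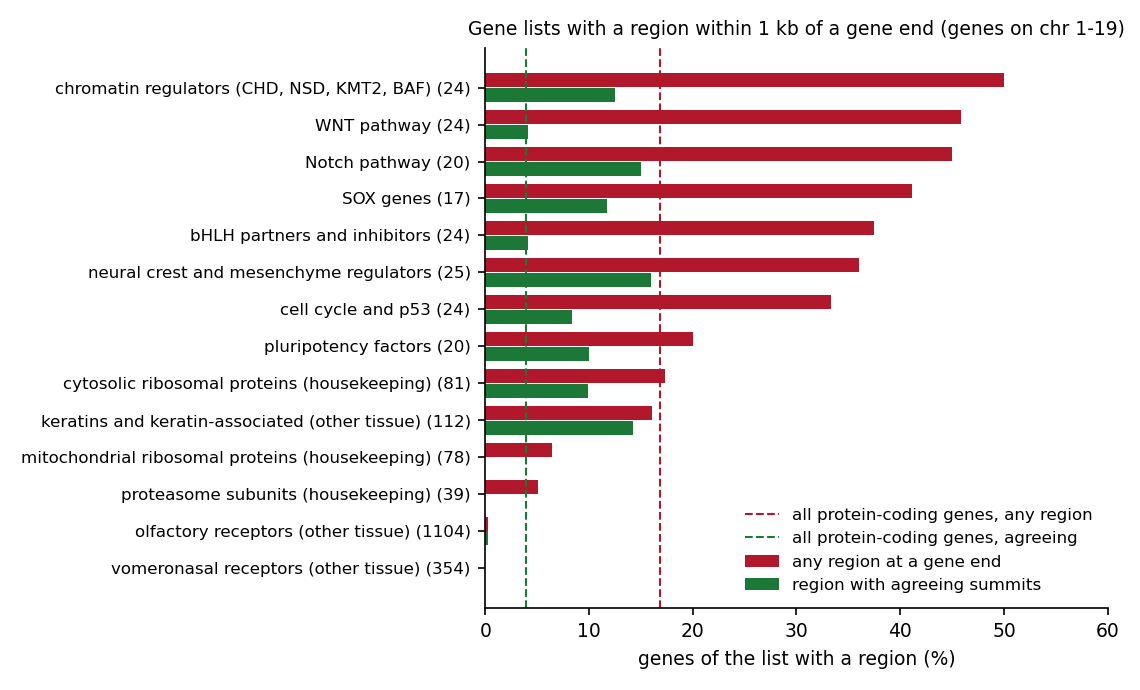
Percent of the genes of each list with any gene-end region (upper bars) and with an agreeing one (lower bars), with the number of genes on chromosomes 1 to 19 in brackets; dashed lines mark all protein-coding genes (16.8% and 3.97%). The chromatin, WNT and Notch lists reach 50%, 45.8% and 45% for any region, and the neural crest, Notch and keratin lists are highest for agreeing summits (16%, 15% and 14.3%).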

How the data were processed

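TWIST1 ChIP-seq peak lists of 7 libraries were read (4 ChIP libraries of Twist1-OE cells, 2 of Twist1-KO cells and 1 input of Twist1-KO cells), grouped by sample title. Per the submitters' processing notes the authors used Trimmomatic, BWA, Picard and MACS2 with mm10 and GRCm38.p5. Tool versions, tool settings and the control of the peak caller: not given in the sources used here. The control bears on the number of peaks and on their folds. Peaks were called per library. The deposited lists hold, for each peak, the authors' fold ratio over local background, −log10 of the p-value, −log10 of the q-value, the summit offset, and a deposited score that was not used for results. The column chosen to pick a region's strongest peak was the −log10 p-value. Depth is unknown. Background fragments were recovered from fold and p-value, within 0.002 of the listed −log10 p-value, for 96.5 to 98.3% of peaks in the OE and input lists and 75.0 and 80.2% in the KO ChIP lists.

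Gene ends came from RefSeq (GRCm38.p6, 20661 protein-coding genes on chromosomes 1 to 19). Strand and sequence came from RefSeq promoter entries, matched for 16456 of these genes. No genome was used here, so the planned E-box test at all summits was not run. Shares in promoter entries took its place, and the comparison of agreeing with spread summits was chosen after seeing the data. Members, gene lists and tests were chosen with earlier results of these data known. Library differences were tested by exact sign-flip permutation over 4 libraries, two-sided, and its p-values cover only the spread between libraries. The genes named come from fixed sets: the 15 strongest by mean rank, the 5 strongest per end and the largest gaps between library sets. Further sets are those nearest the 1 kb limit, up to 4 members and 2 non-members per list, and genes with most regions (60 tied at 2, so taken by name). The genes of the printed sequences were also named. Not all of these are described. Podn, Ddx27, Anpep, Arhgef37, Smim13 and Nid2 of the 15 strongest, and Ifitm7 of the 5 strongest at far ends, have no values given here. Twist1, Dll3, Snai2 and list members named only as having or lacking a region were added after their values were seen. Alternatives changed the distance, q-value limit, list length, number of libraries, control overlap and left-out libraries. Python 3.11.15, numpy 2.4.6, pandas 2.3.3, scipy 1.17.1 and matplotlib 3.10.9 were used, and the region, placement and permutation steps were tested on simulated data.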

Additional observations from a re-analysis of the deposited data

Results flagged for a closer look

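Of 88 values with 4 libraries that were examined, 3 had a library far from the other 3, and chance alone sets apart about 1 in 20 such groups. The fold at Tbc1d8 was 193.645 in OE 1, against 103, 101.2 and 85.4 in OE libraries 2 to 4. The fold at Ccne1, the gene of cyclin E1, was 24.9543 in OE 1, against 6.90, 6.04 and 8.17. The median percentile of gene-end regions was 77.2638 in OE 1, against 66.5, 67.3 and 66.5.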

How the results depend on the processing

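The number of gene-end regions (3173) became 1762 with a −log10 q-value of at least 10, 606 with lists cut to equal length and 1138 with every summit within 100 bp of the position, and the number of genes (3464) became 1944, 669 and 1248. The share at gene ends (31.2%) became 25.05% with a limit of 500 bp, 36.9% with 2 kb, 27.8% with the q-value limit, 11.9% with equal lengths, 17.5% with summits within 100 bp, 25.3% with at least 3 of 4 libraries and 33.2% with control overlaps kept. Leaving out a library gave 24.1% (without OE 4) to 33.2% (without the KO input). The mean log2 fold difference kept its sign in 18 of 18 alternatives (−1.03 to −0.21). Leaving out either Twist1-KO ChIP list, or taking the highest fold in the region, did not change it from −0.76. It was −0.37 without OE 2, −0.44 without OE 3, −0.33 with at least 3 libraries and −0.21 with equal lengths. The exact permutation test cannot go below 0.13 with 4 libraries or 0.25 with 3, so no alternative could give a small p. In the main setting OE 1 and 4 were positive (0.29 and 0.40) and OE 2 and 3 negative (−1.98 and −1.75). The percentile difference turned to 2.94 points with equal lengths and ran from −13.3 (without OE 1) to −2.71 (without OE 2) as each library was left out. The width difference turned positive at 2 kb (3.38 bp), with the q-value limit (10 bp), with equal lengths (112.5 bp) and with at least 3 libraries (62.75 bp), and ran from −28.2 to 58.8 bp as each library was left out (−28.2 bp without OE 1, 36 bp without OE 2, 58.8 bp without OE 4). The cause was not tested. Agreeing summits made up 12.6% of members with a range of 50 bp and 39.5% with 200 bp, against 46.5% and 79.5% elsewhere. The E-box difference between agreeing and spread summits stayed positive in 7 of 7 alternatives added after seeing the data (21.8 to 44.0 points). Those that left out a library could not change its sign, since the difference was positive in all 4 libraries. Over all 20661 protein-coding genes, 2738 had a region at 500 bp, 4124 at 2 kb and 4996 with at least 3 libraries. Counts of list genes that moved at 500 bp were Notch 2, chromatin 5, cytosolic ribosomal 9 and mitochondrial ribosomal 3. At 2 kb they were pluripotency 8, mitochondrial ribosomal 10 and olfactory 6, and with at least 3 libraries pluripotency 9, cytosolic ribosomal 26, mitochondrial ribosomal 16 and proteasome 4. The planned E-box alternatives at all summits were not run. No paired analysis was possible because the groups that share replicate numbers, OE and KO ChIP, were compared in no test. Peaks under a list's limit are unseen, and the background level differs between the library sets.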
